A study of Mus musculus with 3 samples.

Results

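The cells described here are sorted CD45+ aortic cells chosen for RNA of Lyve1, Folr2 and Cd163, a profile usually given to macrophages resident in the vessel wall. They were chosen by measured values, barcode by barcode, and the label fitted only part of them: 1061 of 1802 fell into a pair of sub-clusters with high Lyve1, Cd163 and Mrc1, and the others into sub-clusters led by genes of other states or cells. A barcode was a member when it had at least 2 UMIs (unique molecular identifiers, each standing for 1 captured RNA molecule) of Lyve1, Folr2 and Cd163 together and at least 1 UMI of Csf1r or C1qa. It also had to hold no UMI of Gpnmb, Cd79a, Cd3e, Col1a1 or Cdh5. Kept barcodes had at least 200 detected genes and at most 10% of UMIs from mitochondrial genes. This gave 1802 members of 20903 kept barcodes: 527 of 6038 in the control library, 396 of 8155 in the HHcy-labelled library and 879 of 6710 in the WD library. They were described against the 4370 other kept barcodes with at least 1 Csf1r UMI and none of Cd79a or Cd3e, called other Csf1r barcodes below (1436, 920 and 2014 in the same order).

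All mice were labelled ApoE-/- on the C57BL/6J background, controls included. One group was labelled control, another drank water with homocysteine at 1.8 g/L for 4 weeks (HHcy), and the third ate a western diet for 4 weeks (WD). Whole aortas with adventitia were freed of fat and digested with enzymes, and live nucleated CD45+ cells were sorted for droplet sequencing of RNA 3' ends, per the labels' protocols. The labels give neither the number of mice pooled in a library nor their sex or age.

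Each group was 1 library, so no test between groups was possible and nothing here has a replicate check. Intervals are 95% intervals of counting error within a library. They do not cover differences between mice, digestions or libraries, and the treatment of a group and the library that carries it cannot be told apart. Intervals of log2 ratios between levels treat each UMI as an independent draw. They therefore leave out differences between barcodes of a library too, and are too narrow where few barcodes hold most UMIs of a gene. A gene was called higher or lower when it differed at least 2-fold with an interval off 0 on the log2 scale and had at least 50 UMIs over the populations compared.

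Macrophages of the arterial adventitia include a long-lived population that is partly seeded before birth and renews itself in the tissue. Lyve1 encodes a receptor for hyaluronan, a sugar polymer of the extracellular matrix. Folr2 encodes a folate receptor, and Cd163 a scavenger receptor for haemoglobin bound to haptoglobin. Cells of this kind take up matrix fragments, dead cells and iron-carrying proteins, and they differ from the foamy macrophages of the plaque, which carry Gpnmb, Trem2 and Spp1, and from monocytes newly arrived from blood, which carry Ly6c2 and Ccr2. Csf1r, the receptor for the growth factor CSF1, and C1qa, a chain of complement C1q, are broad marks of macrophages.

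The libraries held 66789257 UMIs (control), 105180370 (labelled HHcy) and 93164076 (WD). A member had a median of 6340, 7116 and 9068 UMIs in that order, against 9044, 9986.5 and 10431.5 in other Csf1r barcodes, so members were the shallower population in each library. The median share of mitochondrial UMIs was 4.26%, 4.51% and 4.13% in members and 2.69%, 2.94% and 3.23% in other Csf1r barcodes. Levels are given below as the UMIs of a gene scaled by all UMIs summed over the barcodes of a population in a library (CPM, per 1000000 UMIs). Pairs of libraries shared 20 to 24 barcode sequences, of which 0 to 5 belonged to a member.

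Apoe went against the labels in the HHcy-labelled library. In members, Apoe, which encodes a lipid carrier that macrophages secrete, was at 36.7 CPM in the control library, 1794 CPM in the HHcy-labelled library and 37.0 CPM in the WD library. Members with 10 or more Apoe UMIs numbered 0 of 527 in the control library, which allows a share of up to 0.569% (3 counts of the total), 110 of 396 (27.8%, exact interval 23.4 to 32.5%) in the HHcy-labelled library and 1 of 879 in the WD library. The high Apoe level in that library was therefore carried by a minority of members. The share with 10 or more Apoe UMIs was 6.96% (64 of 920) among other Csf1r barcodes there. Sequencing of 3' ends need not read the disrupted part of the gene, so Apoe counts do not check the genotype by themselves, but the 3 libraries bear the same genotype label and differed in this gene. Every difference given below for the HHcy-labelled library carries this disagreement, and values without the members rich in Apoe are given beside the lectins and regulators described in sub-clusters 1 and 2.

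**Figure D1:**
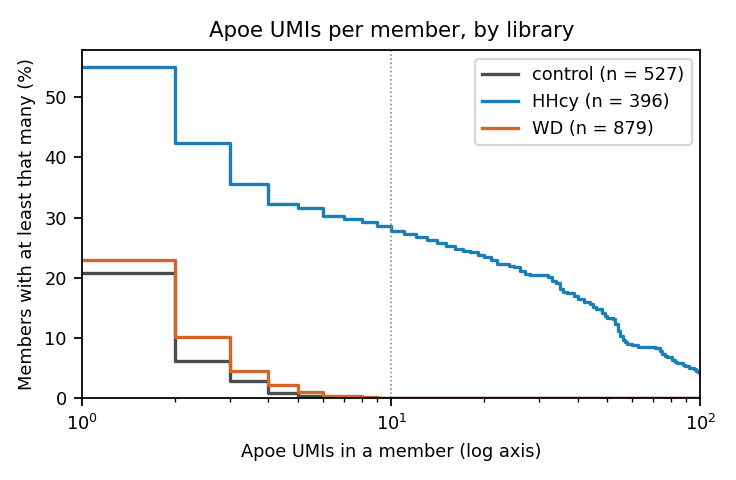
Share of members (vertical axis, %) with at least the number of Apoe UMIs on the horizontal axis (log axis), 1 line per library, with a dotted line at 10 UMIs. At 10 UMIs the line of the HHcy-labelled library stands at 27.8% and the control line at 0.

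The genes of the rule are given as a description, since they chose the members. Lyve1 was detected in 70.2% of members in the control library, 80.3% in the HHcy-labelled library and 58.6% in the WD library. Folr2 was detected in 78.2%, 87.4% and 85.1%, and Cd163 in 81.8%, 90.2% and 78.6%. All 3 genes together were found in 46.9%, 67.9% and 43.6% of members, so in the control and WD libraries most members lacked a UMI of at least 1 of them. The median sum of the 3 genes was 10, 15 and 10 UMIs. Just inside the threshold lay 62, 40 and 117 members with a sum of exactly 2, and just outside lay 232, 179 and 354 otherwise similar barcodes with a sum of 1. Mrc1 was at 223, 159 and 296 CPM just inside and at 166, 105 and 208 CPM just outside, and Cbr2 at 66.4, 87.9 and 67.4 CPM against 31.1, 19.8 and 39.8 CPM.

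Detection depends on depth, so each barcode was also thinned to 2000 UMIs. After thinning, Lyve1 was detected in 52.8%, 63.4% and 39.0% of members, against 2.26%, 4.29% and 2.30% of other Csf1r barcodes and 1.38%, 1.12% and 1.16% of B cells (Cd79a of at least 2, no Csf1r), which should lack it and show the level of free RNA. Cbr2, a carbonyl reductase that the rule did not use, was detected in 50.8%, 58.7% and 52.2% of members (76.3%, 80.8% and 80.9% without thinning). Cd209f, a C-type lectin that the rule did not use, was detected in 10.4%, 22.2% and 11.4% (17.8%, 29.5% and 19.2% without thinning). Most members thus carried Cbr2, while Cd209f marked a minority in each library.

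Members made up 8.73% (8.03 to 9.47%) of kept barcodes in the control library, 4.86% (4.40 to 5.34%) in the HHcy-labelled library and 13.1% (12.3 to 13.9%) in the WD library. Among members and other Csf1r barcodes together, their share was 26.8% (24.9 to 28.9%), 30.1% (27.6 to 32.6%) and 30.4% (28.7 to 32.1%). On that denominator the libraries were close: the log2 ratio was 0.16 (0.0058 to 0.32) for HHcy over control, 0.18 (0.047 to 0.31) for WD over control and 0.014 (-0.13 to 0.16) for WD over HHcy. Over all kept barcodes, the same ratios were -0.85, 0.59 and 1.43, and the first had the opposite sign. Leaving out barcodes with 10 or more Apoe UMIs also turned the first on the denominator of Csf1r barcodes, to -0.10.

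The exclusion of Cd79a, a B cell gene, moved these shares unequally. Barcodes that met the positive conditions alone made up 15.98% (15.1 to 16.9%), 19.95% (19.1 to 20.8%) and 27.4% (26.3 to 28.5%) of kept barcodes. Of these, 346 of 965 (35.9%), 1129 of 1627 (69.4%) and 739 of 1837 (40.2%) held Cd79a and were left out by the rule. Those with Cd79a had a median of 15676, 20204 and 22796 UMIs, above the medians of members, and whether they were macrophages with free B cell RNA or droplets with more than 1 cell was not tested. B cell genes were also present in members: 3 or more genes of a 12-gene B cell list were detected in 37.2%, 68.4% and 45.7% of members, with a summed level of 481, 944 and 473 CPM. Their part in the shares was not tested.

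**Figure D2:**
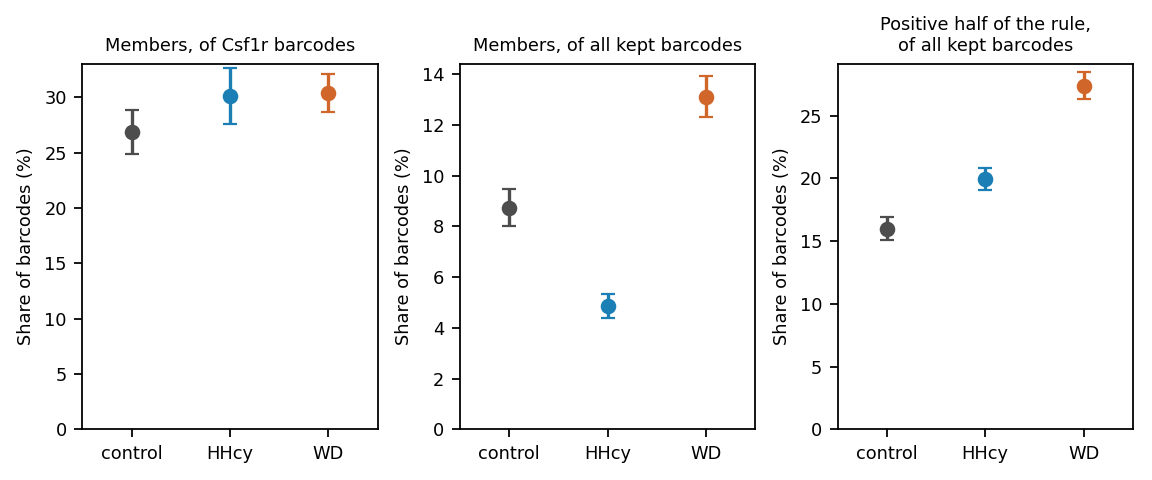
Share of barcodes (vertical axis, %) in each library with exact 95% counting intervals, for members over kept barcodes, members over members plus other Csf1r barcodes, and barcodes meeting the positive conditions over kept barcodes. The HHcy-labelled library is lowest on the first denominator, at 4.86%, and close to the WD library on the second, at 30.1% against 30.4%.

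Against other Csf1r barcodes, members were marked by lectins, scavenger receptors and secreted factors of tissue macrophages. The rule split the same barcodes, so this contrast is a description and nothing is read from its counts. Of 9879 genes, 287 (2.91%) were at least 2-fold higher in members in each of the 3 libraries and 151 (1.53%) at least 2-fold lower. The median over all genes was 0.07 on the log2 scale. Of the 21 measured genes of a resident macrophage list, 16 were higher and the list's median was 2.50, and on the monocyte list 6 of 14 were lower and none higher, with a median of -1.59. On a T or NK cell list 4 of 10 were higher (Lck, Nkg7, Klrb1c and Ncr1) and none lower, with a median of 1.16. The part of other cells' RNA in this contrast was not tested.

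Uptake receptors came first. Cd209f was at 82.1, 276 and 129 CPM in members of the control, HHcy-labelled and WD libraries and at 3.49, 12.7 and 7.74 CPM in other Csf1r barcodes, log2 ratios of 4.56 (4.14 to 5.002), 4.44 (4.18 to 4.72) and 4.06 (3.84 to 4.28). Mrc1, the mannose receptor, was at 1264, 1181 and 1043 CPM against 124, 111 and 197 CPM, log2 ratios of 3.35, 3.41 and 2.41. Levels in members did not overlap those of other Csf1r barcodes for either gene. Further members of these groups were Stab1, a scavenger receptor that clears dead cells and matrix (log2 ratios 2.78, 2.78 and 1.63), Cd209g (4.09, 4.71 and 3.40), Cd209d (2.43, 4.16 and 2.50) and Cd209b (3.28, 3.45 and 3.31). Clec10a and Mgl2, lectins that bind galactose-type sugars, stood at 1.97, 2.53 and 2.01 and at 2.42, 3.27 and 1.51. Of 16 measured endocytic receptors 8 were higher and none lower. The Cd209 genes are a family of close copies, and how reads shared between copies were counted is not given in the sources used here, so the split among them is uncertain.

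Genes for the recognition and handling of dead cells were partly higher. Gas6, the bridge between dead cells and the receptors Mertk and Axl, was at 428, 463 and 385 CPM in members and at 28.5, 48.3 and 56.0 CPM in other Csf1r barcodes, log2 ratios of 3.91 (3.76 to 4.06), 3.26 (3.12 to 3.41) and 2.78 (2.69 to 2.87). Mertk stood at 1.58, 1.68 and 1.26, and Pros1, a second bridging protein, at 1.16, 1.09 and 1.17. Of 15 measured genes of this list 4 were higher and 1 lower, and its median was -0.03, below that over all genes. On the iron list 4 of 11 were higher, among them Hmox1, which breaks down haem (1.42, 1.81 and 1.34), and Trf, transferrin (1.16, 1.10 and 1.07). Selenop, a secreted selenium carrier, stood at 2.63, 2.83 and 2.15.

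Secreted signals differed in both directions. Ccl8, a chemokine that attracts monocytes and T cells, was at 297, 768 and 1319 CPM in members and at 14.9, 38.5 and 131 CPM in other Csf1r barcodes, log2 ratios of 4.32, 4.32 and 3.33. Ccl7, a monocyte chemokine, stood at 2.92, 2.55 and 1.22, Ccl24, an eosinophil chemokine, at 1.85, 2.28 and 1.84, and Cxcl13, which attracts B cells, at -1.47, -1.72 and -1.75. Among 19 measured chemokine genes 4 were higher and 1 lower. Of the growth factors, Pdgfc (2.75, 3.25 and 2.70) and Bmp2 (2.12, 1.59 and 1.90) were higher, and Vegfa, the main driver of vessel growth (-1.94, -1.43 and -1.68), was lower. Tslp, a cytokine of type 2 immunity, was at 17.2, 29.1 and 25.2 CPM against 1.18, 1.46 and 2.29 CPM, and Pla2g2d, a secreted phospholipase, at 31.8, 56.8 and 32.8 CPM against 1.18, 2.34 and 2.09 CPM. Both were at low levels.

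Complement genes differed in both directions. C6, a component of the membrane attack complex, was at 8.61, 28.0 and 35.5 CPM in members against 0.724, 1.76 and 2.41 CPM, log2 ratios of 3.57, 3.99 and 3.88. C4b, a form of complement C4 (1.17, 1.08 and 1.30), was also higher, while C3, the central component, was lower (-1.68, -2.07 and -1.14). MHC class II genes were alike in both populations: H2-Ab1 was at 3851, 3543 and 3694 CPM in members and 3501, 3076 and 3305 CPM in other Csf1r barcodes, and none of 10 list genes was called. The interferon-stimulated list had 0 of 18 and the cell cycle list 0 of 19 called, with medians of 0.06 and 0.66.

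Alternative activation genes were split. Retnla, a secreted protein induced by interleukin-4, was at 2305, 2932 and 1412 CPM in members and 691, 446 and 214 CPM in other Csf1r barcodes, log2 ratios of 1.74, 2.72 and 2.72, while Arg1, arginase, stood at -2.83, -1.51 and -1.40. Of the list's 13 measured genes 5 were higher and 3 lower. Foam cell genes went one way: 7 of 18 were lower and none higher, with a median of -0.57. Spp1, osteopontin, was at 31.8, 86.5 and 310 CPM in members and at 1110, 207 and 1030 CPM in other Csf1r barcodes, log2 ratios of -5.13, -1.26 and -1.73, and Lgals3, a galectin of lipid-laden macrophages, stood at -1.64, -1.56 and -1.52. The rule left out barcodes with Gpnmb, itself a foam cell gene, so this direction is in part set by the choice of members. Matrix proteases included 4 of 13 lower genes and none higher, among them Ctsk (-4.83, -2.53 and -2.54) and Mmp12 (-1.94, -2.23 and -1.77).

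Il1b, the inflammatory cytokine, was at 613, 1098 and 707 CPM in members and at 1771, 2671 and 1622 CPM in other Csf1r barcodes, log2 ratios of -1.53 (-1.59 to -1.47), -1.28 (-1.33 to -1.23) and -1.20 (-1.23 to -1.16). Of 15 measured inflammatory genes 3 were lower and none higher. Maf, a transcription factor of self-renewing tissue macrophages, was at 934, 796 and 756 CPM against 110, 90.2 and 162 CPM, log2 ratios of 3.08, 3.14 and 2.22, and it was the sole higher gene among 21 measured transcription factors. Hspa1a, a heat shock gene that tissue digestion can induce, was at 1062, 1043 and 829 CPM against 358, 152 and 330 CPM, beside the higher mitochondrial share of members given above. Hspa1a and Hspa1b are near-identical copies whose reads may be split by the counting.

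The other most markedly higher genes were Chp2 (4.71, 4.14 and 3.33), Tnfrsf17 (5.10, 4.64 and 3.18), Rgs7bp (4.26, 2.998 and 2.90), Fxyd2 (3.69, 4.32 and 3.20), Plekhg5 (3.68, 3.48 and 3.15), Maoa, monoamine oxidase A (3.10, 3.58 and 3.11), and Barx2 (2.98, 3.52 and 3.18). The most markedly lower genes were mostly those of other cells in the comparison barcodes. Elane (-5.36, -5.003 and -4.74), Mpo and Prtn3 encode granule proteins of neutrophil precursors, and Col3a1, Col1a2, Lum, Loxl1 and Mmp3 are fibroblast genes, which the rule held down through Col1a1. Meg3, a noncoding RNA, and Ctsk completed the 10.

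**Figure D3:**
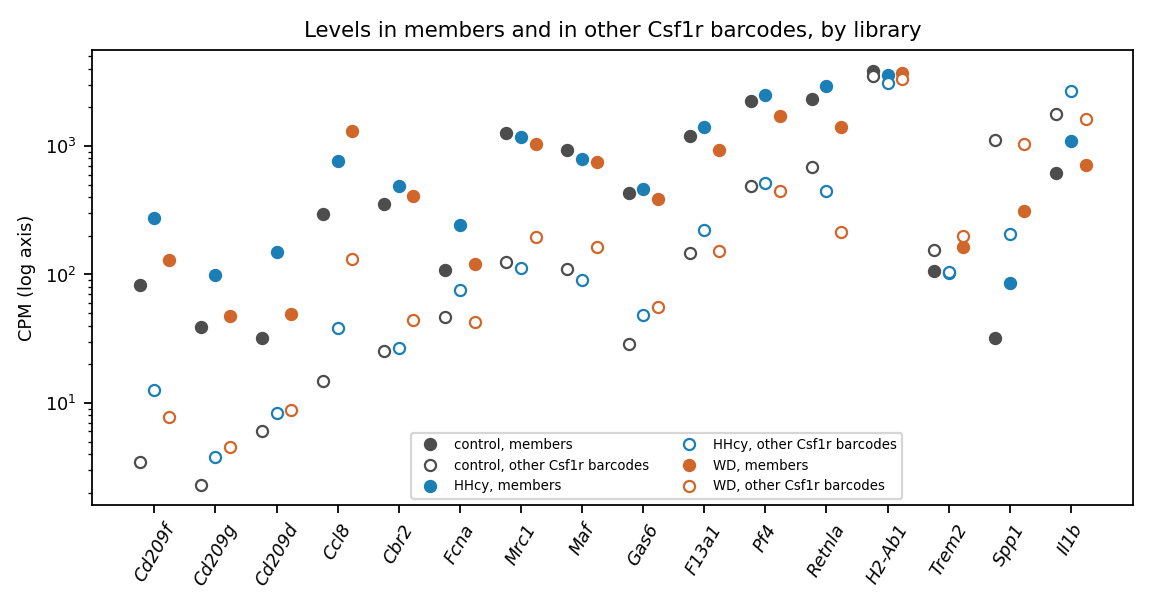
Level (vertical axis, CPM, log axis) of selected genes in members and in other Csf1r barcodes, 1 point per library. Mrc1 lies between 1043 and 1264 in members and between 111 and 197 in other Csf1r barcodes, and Spp1 lies lower in members in each library.

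Members were also set beside 3 populations chosen by their own genes and without Lyve1, Folr2 and Cd163: 197 barcodes with Gpnmb (foamy-like), 859 with Ms4a7 and C1qa, and 472 with Ly6c2 and no C1qa (monocyte genes). Mrc1 was higher in members than in the Ms4a7 barcodes by log2 ratios of 2.60, 3.26 and 2.19, than in the Gpnmb barcodes by 4.34, 4.08 and 3.41 and than in the Ly6c2 barcodes by 4.92, 5.38 and 4.77. C1qb, a second chain of C1q, was near the level of the Ms4a7 barcodes (-0.32, 0.13 and -0.03) and far above the Ly6c2 barcodes (6.07, 6.43 and 5.95). Presence or absence of C1qa chose both populations, so the C1qb ratios are in part set by that choice. Cx3cr1, the fractalkine receptor, was lower in members than in the Ms4a7 barcodes (-1.34, -1.47 and -1.13). By Mrc1 the Ms4a7 barcodes were the nearest of these populations to members. Mrc1, Gas6 (4.23, 4.34 and 3.79) and Cbr2 (3.68, 4.92 and 3.83) still separated them from members in each library.

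Clustering of the 1802 members on genes other than those of the rule gave 11 sub-clusters. The sub-clusters were left numbered, because their own leading genes named several kinds of cell. Sub-cluster 1 (587 members) was led by Lilra5, Ccl12, Serpinf1, Vcam1 and Cxcl10, and sub-cluster 2 (474 members) by Cd209d, Ednrb, Cd209f, Fcna, Cd209g, Retnla and Ccl24. Together they held 1061 of 1802 members. Over the 3 libraries Lyve1 was at 583 CPM in sub-cluster 1 and 1359 CPM in sub-cluster 2, against 293 CPM in sub-cluster 3 and 88.7 CPM in sub-cluster 4. Cd163 was at 1277 and 1493 CPM against 345 and 202 CPM, and Mrc1 at 1899 and 1992 CPM against 705 and 778 CPM. Cd209f was at 497 CPM in sub-cluster 2 and at 37.6 CPM in sub-cluster 1.

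The remaining sub-clusters were led by genes of other states or cells. Sub-cluster 3 (224 members) was led by Treml4, Ace and Cd300e, genes of patrolling monocytes. Sub-cluster 4 (176) was led by Spp1, Lpl, Cd72 and Ifit3, with Spp1 at 964 CPM against 17.9 CPM in sub-cluster 1 and 23.8 CPM in sub-cluster 2. Sub-cluster 5 (87) was led by Ccl22 and Ccr7, which dendritic cells carry on their way to lymph nodes, and sub-cluster 9 (26) by Xcr1 and Clec9a, genes of cross-presenting dendritic cells. Sub-clusters 6 (79) and 11 (13) were led by neutrophil genes, with S100a9 at 25567 and 74394 CPM against 86.4 CPM in sub-cluster 1, and sub-cluster 7 (67) by the killer cell genes Gzma and Nkg7. Sub-cluster 8 (51) was led by cell cycle genes, and sub-cluster 10 (18) by Prg4 and Alox15, genes of serous cavity macrophages. Sub-clusters 3 to 11 had median UMIs of 9582 to 22332 per barcode, against 5350 and 6334 in sub-clusters 1 and 2. Whether their barcodes held RNA of more than 1 cell was not tested.

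**Figure D4:**
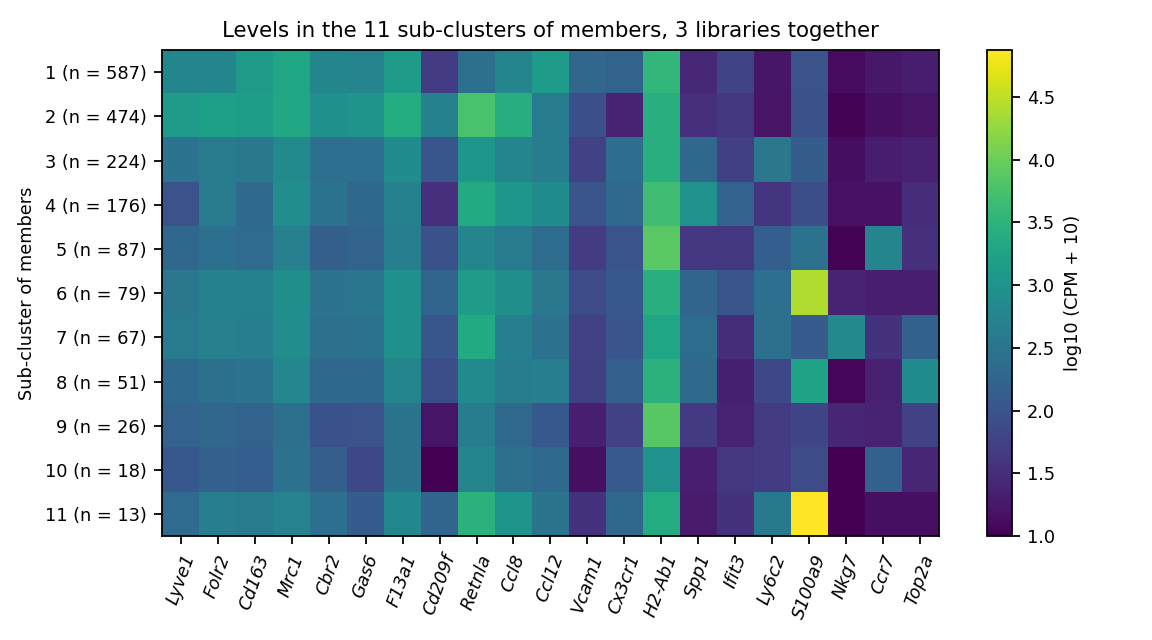
Level of marker genes (columns) in each of the 11 sub-clusters of members (rows), as log10 of CPM plus 10, with the 3 libraries summed. Lyve1, Cd163 and Mrc1 are high in sub-clusters 1 and 2, Spp1 is highest in sub-cluster 4 and S100a9 in sub-clusters 6 and 11.

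Sub-clusters 1 and 2 differed in the same direction in each library for the genes with ratios given here. These genes formed the clusters, so the values are a description. Retnla was at 129, 283 and 347 CPM in sub-cluster 1 and at 7516, 7048 and 4219 CPM in sub-cluster 2 (control, HHcy-labelled and WD libraries), log2 ratios of 2 over 1 of 5.86, 4.64 and 3.60. Fcna, a ficolin that binds sugars on microbes (2.92, 3.79 and 3.20), Timd4, a receptor for phosphatidylserine on dead cells (1.29, 1.51 and 2.08), and Ccl24 (1.51, 1.63 and 1.50) were also higher in sub-cluster 2. Sub-cluster 1 carried more of the chemokines Ccl3 (-2.82, -2.15 and -2.53), Ccl4 (-2.12, -2.49 and -2.19), Ccl12 (-2.195, -2.74 and -1.45) and Cxcl10 (-2.17, -2.26 and -1.94). Cx3cr1 (-2.75, -3.01 and -4.98) and Tnf (-1.14, -1.61 and -1.55) stood higher there too. Chemokines went both ways, since Ccl8 was higher in sub-cluster 2 (1.15, 1.47 and 2.50). Sub-cluster 1 held 201, 129 and 257 members and sub-cluster 2 held 147, 145 and 182. These sizes are not compared between libraries, because genes leading sub-cluster 2 themselves differed between libraries.

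Between the control library and the HHcy-labelled library, 122 of 9076 genes were at least 2-fold higher in HHcy members (1.34%) and 72 at least 2-fold lower (0.793%), with a median of -0.02 over all genes. This balance turned without barcodes with 3 or more genes of another lineage (41 higher and 184 lower) and without those with 3 or more neutrophil genes (66 and 232). Of the 122 higher genes, 53 had over 50% of their UMIs in 5 barcodes of the library where they were higher, and of the 72 lower genes, 31. The most extreme ratios belonged to such genes. Tpsb2, Mcpt4, Cpa3 and Cma1, mast cell proteases, were lower in the HHcy-labelled library (Tpsb2 at 0.28 against 72.9 CPM), and in the control library 2 members held 3 or more mast cell genes. Marco, a scavenger receptor of alveolar and cavity macrophages, was at 108 CPM from 3 members against 2.43 CPM from 2, and Il12b was likewise found in 3 members against 2. Tgfb2 and Cd5l, also higher, were held by 4 and 13 members against 4 and 14. Csf2, Hist1h3e, Hist1h4h and Apol7c were the other lowest genes. Of the 8 most markedly higher genes, Apoe (log2 ratio 5.61), Hal, histidine ammonia-lyase (35 members against 4), Asprv1 (18 against 2) and G0s2, an inhibitor of fat breakdown (52 against 25), were held by more.

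Neutrophil genes differed between these libraries. In members, 10 of 11 measured neutrophil genes were at least 2-fold higher in the HHcy-labelled library and none lower. S100a9 was at 1147, 4559 and 2156 CPM, and 3 or more neutrophil genes were detected in 15.4%, 39.9% and 28.9% of members of the control, HHcy-labelled and WD libraries. Asprv1 and G0s2 led the neutrophil sub-cluster 6. Their part in the counts above was not tested. The comparisons below were repeated in sub-clusters 1 and 2, where 46 of 6900 genes were higher in the HHcy-labelled library than in control (0.667%) and 58 lower (0.841%), with a median of -0.03. RNA of other lineages differed between the libraries there too. The neutrophil list summed to 279, 535 and 299.7 CPM, with 2 of 4 measured genes higher in HHcy over control, S100a8 (1.43) and S100a9 (1.29, at 55.6, 136 and 73.5 CPM). The B cell list summed to 602, 1093 and 607 CPM, with 1 of 6 higher, Igkc, an immunoglobulin light chain (2.21). These ratios are of the size of those of the lectins below, and their part in the lectin values was not tested.

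Of the 122 higher genes, 37 were found in at least 10% of HHcy members with at most 50% of their UMIs in 5 barcodes, leaving out genes of the kinds not named. They included Apoe (218 members), Ccl8 (166), G0s2 (52) and 3 Cd209 lectins, which bind sugars on microbes and dead cells. The Cd209 genes lie together on mouse chromosome 8, and the start regions of 3 of them are printed to show how alike Cd209f and Cd209g are and how Cd209d differs. Each is 250 bases before to 50 bases after the start from RefSeq, build GRCm38.p6: Cd209d at chr8:3878450-3878749 on the minus strand, Cd209f at chr8:4105715-4106014 on the minus strand and Cd209g at chr8:4134486-4134785 on the plus strand. Capitals mark a stretch of 180 bases that is identical in Cd209f and Cd209g, at bases 97 to 276 and 83 to 262.
Cd209d: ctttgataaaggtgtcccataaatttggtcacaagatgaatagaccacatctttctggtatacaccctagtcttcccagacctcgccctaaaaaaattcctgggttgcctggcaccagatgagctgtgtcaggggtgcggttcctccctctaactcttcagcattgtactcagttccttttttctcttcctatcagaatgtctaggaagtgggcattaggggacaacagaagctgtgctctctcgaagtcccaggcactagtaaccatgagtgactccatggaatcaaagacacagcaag
Cd209f: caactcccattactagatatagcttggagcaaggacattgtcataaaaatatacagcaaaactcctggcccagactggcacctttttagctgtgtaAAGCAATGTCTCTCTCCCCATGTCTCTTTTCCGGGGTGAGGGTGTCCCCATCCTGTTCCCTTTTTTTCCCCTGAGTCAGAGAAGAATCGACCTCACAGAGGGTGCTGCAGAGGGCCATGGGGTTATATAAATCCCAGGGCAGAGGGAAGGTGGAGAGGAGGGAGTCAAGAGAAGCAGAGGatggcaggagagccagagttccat
Cd209g: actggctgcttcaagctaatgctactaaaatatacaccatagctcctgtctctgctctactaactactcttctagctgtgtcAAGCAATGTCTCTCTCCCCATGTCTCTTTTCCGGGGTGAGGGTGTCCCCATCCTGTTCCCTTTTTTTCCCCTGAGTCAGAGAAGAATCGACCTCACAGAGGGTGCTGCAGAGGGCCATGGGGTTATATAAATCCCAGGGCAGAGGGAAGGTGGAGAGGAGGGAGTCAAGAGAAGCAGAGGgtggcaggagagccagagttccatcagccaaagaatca
Of 32851 start regions in the table, these 2 held the stretch. The longest run that Cd209d shared with either of them was 10 bases. The match is a description of the sequence and shows no shared control.

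In all members, Cd209d was at 32.2 CPM in the control library, 149 CPM in the HHcy-labelled library and 49.6 CPM in the WD library. Its log2 ratio of HHcy over control was 2.204 (1.94 to 2.48). Cd209f was at 82.1, 276 and 129 CPM (1.75, 1.58 to 1.93) and Cd209g at 39.1, 99.9 and 47.8 CPM (1.35, 1.09 to 1.62). For each of the 3 genes the HHcy-labelled library was the highest and the control library the lowest. Cd209d was detected in 105 of 396 members there and in 58 of 527 in the control library, and the 5 richest barcodes held 26.9% and 32.9% of its UMIs. Fcna was at 109, 244 and 122 CPM (1.17, 1.01 to 1.33). In other Csf1r barcodes the ratio of HHcy over control was 0.47 for Cd209d, 1.86 for Cd209f, 0.72 for Cd209g and 0.69 for Fcna. In B cells it was 0.42, 1.35, 0.77 and -0.16 in the same order. The difference in Cd209f was thus not particular to members. On the resident macrophage list, 5 of 21 genes were higher and none lower in the HHcy-labelled library, with a median of 0.39, and besides these 4 the fifth was Cd209b, for which a few barcodes held most UMIs. Among the genes of the list not called, Timd4 stood at 0.87, Clec10a at 0.75, Selenop at 0.48, Gas6 at 0.11 and Mrc1 at -0.10.

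Barcodes with RNA of other lineages touched these values. When barcodes with 3 or more genes of a B cell, T or NK cell, fibroblast, endothelial or neutrophil list were left out, 274 control members, 90 members of the HHcy-labelled library and 348 WD members remained. The log2 ratio of HHcy over control was then 1.53 for Cd209d, 0.67 for Cd209f, 0.71 for Cd209g and -0.16 for Fcna. Of these 4 genes, Cd209d stayed at least 2-fold higher and Fcna turned its direction. The part of other RNA in these ratios was not tested.

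Within sub-cluster 2, which these lectins lead, the same order held. Cd209d was at 130, 353 and 216 CPM, with a log2 ratio of HHcy over control of 1.45 (1.12 to 1.78) and of WD over control of 0.74 (0.41 to 1.07). Cd209f was at 330, 715 and 443 CPM, ratios of 1.12 (0.91 to 1.33) and 0.43 (0.22 to 0.64). Cd209g was at 139, 253 and 176 CPM, and its ratio of HHcy over control, 0.87 (0.53 to 1.21), was under 2-fold. Retnla, which marks the same sub-cluster, was at 7516, 7048 and 4219 CPM and did not follow this order. In sub-clusters 1 and 2 together, leaving out HHcy members with 10 or more Apoe UMIs gave ratios of 1.87 for Cd209d, 1.35 for Cd209f and 0.77 for Cd209g, against 1.93, 1.49 and 1.10 with them. The differences in Cd209d and Cd209f were nearly as large without the Apoe-rich members.

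Within sub-clusters 1 and 2, a few regulators and signal genes were lower in the HHcy-labelled library. Of 18 measured transcription factors in sub-clusters 1 and 2, 2 were called lower, Id3 among them. The same held for 2 of 9 growth factors, Hbegf among them, and 2 of 13 inflammatory genes, Il1rn among them. None of these lists had a gene called higher, and 0.841% of all genes were lower there. In sub-clusters 1 and 2 together, Id3, a repressor of transcription that resident macrophages of several tissues carry, was at 88.4, 39.6 and 79.6 CPM, a log2 ratio of HHcy over control of -1.16 (-1.59 to -0.74), and it was lower in sub-cluster 1 (-1.10) and in sub-cluster 2 (-1.44) alike. Il1rn, which blocks the interleukin-1 receptor, was at 32.7, 12.2 and 34.1 CPM (-1.42), and Hbegf, a growth factor, at 39.5, 15.7 and 36.7 CPM (-1.33). Without the Apoe-rich members the ratios were -1.34 for Id3, -1.15 for Il1rn and -0.92 for Hbegf, the last under 2-fold. For these 3 genes the control and WD libraries lay close together in sub-clusters 1 and 2 combined. For Il1rn that closeness held for the sum alone: WD over control was called higher in sub-cluster 1 and lower in sub-cluster 2. Over all members Il1rn was at 57.4 CPM in the control library and 129 CPM in the WD library, a log2 ratio of 1.16 (0.97 to 1.36). Il1rn was not called over all members in HHcy over control or in WD over HHcy, so its lower level was limited to sub-clusters 1 and 2. In all members Id3 was at 117, 62.4 and 109 CPM and its ratio of HHcy over control, -0.90, was under 2-fold. Of the genes of the homocysteine and methionine cycle, 6 could be measured in sub-clusters 1 and 2 and none was called in that comparison.

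**Figure D5:**
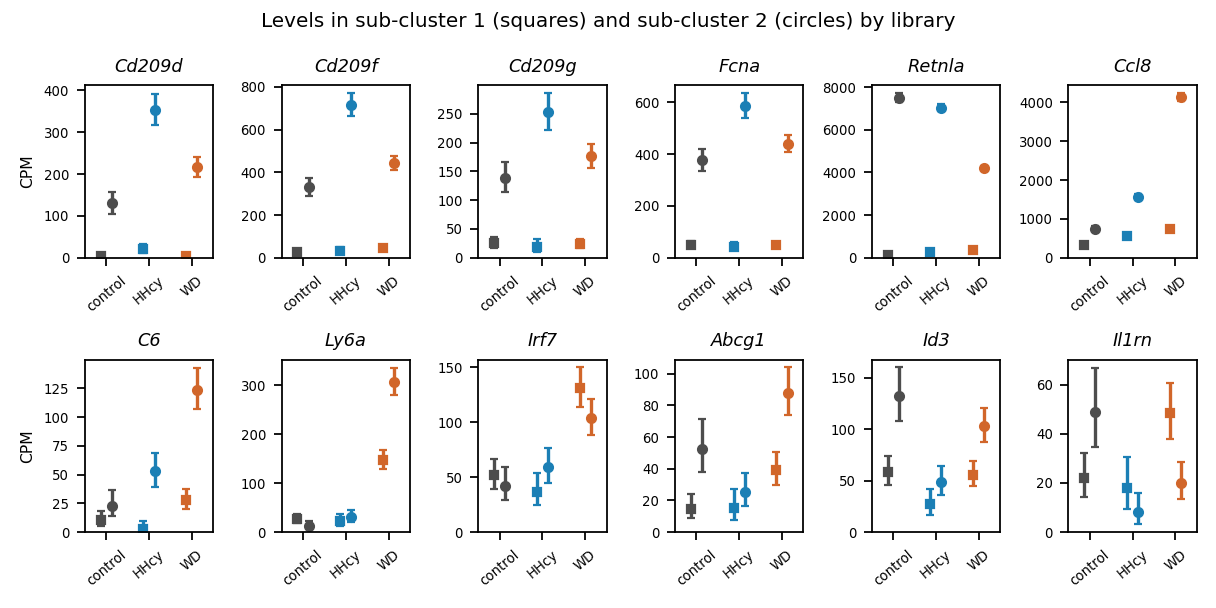
Level (vertical axis, CPM) of selected genes in sub-cluster 1 (squares) and sub-cluster 2 (circles) in the control, HHcy-labelled and WD libraries, with 95% counting intervals. Cd209d in sub-cluster 2 peaks in the HHcy-labelled library at 353, and Ccl8 peaks in the WD library at 4142.

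Between the control and WD libraries, 109 of 10190 genes were at least 2-fold higher in WD members (1.07%) and 81 at least 2-fold lower (0.795%), with a median of -0.05 over all genes. In sub-clusters 1 and 2 together, 66 of 7744 genes were higher (0.852%) and 46 lower (0.594%), with a median of -0.03. Several of the most extreme genes were again held by few barcodes, such as Mucl1 (2 members against 1), Il12b (6 against 2) and Tgfb2 (16 against 4), and the mast cell genes Tpsb2, Cpa3, Mcpt4 and Cma1 were again lower. Nt5e, the ectoenzyme CD73, was found in 48 members against 6. Asprv1, Mmp3 and Il5 completed the higher genes and Xcl1, Adamts1 and Csf2 the lower ones. Ifi202b, an interferon-inducible sensor of DNA, was at 19.2 CPM in 42 control members, 9.79 CPM in members of the HHcy-labelled library and 0 in WD members. It also differed by a log2 ratio of -6.43 in other Csf1r barcodes and -6.23 in all other kept barcodes, so its absence from the WD library was not particular to members. Red blood cell genes summed to 14.1, 5.32 and 227 CPM in members and to 21.3, 5.24 and 715 CPM in sub-clusters 1 and 2, where 4 of 4 measured were higher in WD over control.

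Ccl8 was higher in the WD library. In all members it was at 297 CPM in the control library, 768 CPM in the HHcy-labelled library and 1319 CPM in the WD library, a log2 ratio of WD over control of 2.15 (2.07 to 2.23). It was detected in 535 of 879 WD members and 196 of 527 control members. In sub-cluster 2 it was at 744, 1557 and 4142 CPM (2.48, 2.35 to 2.60) and in sub-cluster 1 at 335, 560 and 731 CPM (1.12, 0.96 to 1.29). The order of the 3 libraries was the same in both sub-clusters. Other Csf1r barcodes differed in the same direction, by 3.14, from a lower level, and B cells by 1.80. Over 13 alternative settings the ratio in all members ranged from 1.94 to 2.41. C6 followed the same order, at 8.61, 28.0 and 35.5 CPM in all members and 23.1, 52.8 and 124 CPM in sub-cluster 2, with a ratio of WD over control of 2.42 (1.73 to 3.21) there. The C6 ratio was 2.04 in all members, 1.73 in other Csf1r barcodes and 1.59 in B cells. Neither rise was thus particular to members.

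Ly6a, the surface protein Sca-1 that interferon can induce, was at 53.2, 67.2 and 239 CPM in all members, a log2 ratio of WD over control of 2.17 (1.98 to 2.37). It was detected in 339 of 879 WD members, 90 of 396 in the HHcy-labelled library and 72 of 527 in the control library. In sub-cluster 2 it was at 12.8, 31.5 and 307 CPM (4.58, 3.69 to 5.65) and in sub-cluster 1 at 26.2, 23.2 and 147 CPM (2.49, 1.94 to 3.09). The WD library was above both others in each sub-cluster, and over 13 alternative settings the ratio in all members ranged from 1.95 to 3.45. In other Csf1r barcodes the ratio was 0.75 and in all other kept barcodes 0.05.

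Interferon-stimulated genes leaned higher in the WD library. Of 18 measured genes of that list, 4 were called higher in WD members than in control members (Ifit3, Irf7, Ifi44 and Usp18) and none lower. Over all genes 1.07% were called higher. The list's median was 0.71 beside -0.05 over all genes. Irf7, a transcription factor that drives interferon genes, was at 79.1, 101 and 163 CPM (1.04, 0.88 to 1.21), and Ifit3, an antiviral effector, at 29.8, 46.5 and 65.7 CPM (1.14, 0.87 to 1.42). In other Csf1r barcodes the ratios of Ifit3, Irf7, Ifi44 and Usp18 were 1.18, 0.14, 0.59 and 0.64. In B cells they were 1.76, 1.20, 0.98 and 0.66, so these differences were not particular to members. Irf7 was at 51.5, 36.9 and 131 CPM in sub-cluster 1 and 42.4, 58.9 and 103 CPM in sub-cluster 2. In sub-clusters 1 and 2 together the list had a median of 0.52 with 2 of 17 called, Irf7 and Zbp1, beside 0.852% of all genes called higher there and a median of -0.03, and Ifit3 stood at 0.52 (0.09 to 0.97), under 2-fold. The list's median was thus lower in sub-clusters 1 and 2 combined than in all members, but the sub-clusters differed. In sub-cluster 2 alone the median was 0.80, with 6 of 17 called higher (Bst2, Ifit2, Ifit3, Irf7, Oas1a and Zbp1). In sub-cluster 1 alone it was 0.51, with 1 of 17 called higher, Irf7. Sub-cluster 4, which carried Ifit3 at 156 CPM, held 129 of the WD members and 36 of the control members.

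Some foam cell genes were higher in the WD library. In all members, Spp1 was at 31.8, 86.5 and 310 CPM and its log2 ratio of WD over control was 3.29 (3.04 to 3.54), but the 5 richest barcodes held 67.6% of its UMIs in the WD library. In sub-clusters 1 and 2 together, 2 of 16 measured foam cell genes were called higher in WD, Abcg1 and Fabp5, and none lower. The list's median was 0.33, beside 0.852% of all genes called higher there and a median of -0.03 over all genes. Abcg1, which exports cholesterol to lipoproteins, was at 30.1, 21.0 and 63.7 CPM (1.08, 0.65 to 1.53). Fabp5, a fatty acid carrier, was at 6.24, 11.1 and 21.1 CPM. Fam167b, a gene of unclear function, was at 36.9, 33.8 and 7.48 CPM in the same cells (-2.30), and Cxcl13 at 27.0, 20.4 and 8.45 CPM (-1.68). Both were lowest in the WD library.

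Between the HHcy-labelled library and the WD library, 98 of 10048 genes were at least 2-fold higher in WD members (0.975%) and 146 at least 2-fold lower (1.45%). These libraries are the same ones set against the control library above, so the values are not independent of those comparisons. Higher in WD members were Ly6a (log2 ratio 1.83), Pparg, a regulator of lipid storage (1.67), and Lpl, lipoprotein lipase (1.09). In B cells these ratios were 0.23, 1.91 and 1.57, and in other Csf1r barcodes -0.15, 0.47 and 0.74. The differences in Pparg and Lpl were thus not particular to members. Lpl was not called in sub-clusters 1 and 2 together. The sub-cluster led by Spp1, Lpl and Cd72 held 14.7% of WD members and 2.78% of HHcy members. Its part in these ratios was not tested. Lower in WD members were Cd209d (-1.58), Cd209f (-1.10), Cd209g (-1.06), Retnla (-1.05), Ccl24 (-1.17) and Vcam1, an adhesion molecule for leukocytes (-1.27). B cell genes were also lower, 5 of 10 measured, as were 5 of 12 neutrophil genes. In sub-clusters 1 and 2 together, where 67 of 7587 genes were higher (0.883%) and 28 lower (0.369%), the 3 lectins stood at -0.94, -0.79 and -0.61. Retnla stood there at -0.86, Ccl24 at -0.66 and Vcam1 at -0.33. All 6 were under 2-fold.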

How the data were processed

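Droplet 3' RNA libraries of sorted aortic CD45+ cells, 1 for each of 3 groups, were analysed. The authors deposited raw counts of UMIs per gene (32285 genes) and barcode, without normalization. Per the file headers the software was Cell Ranger 4.0.0, while the submitters' processing notes name Cell Ranger 2.2.0 and mm10. Doublets were not called beyond the rule's exclusions, and 0 columns of other samples were present.

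Counts were summed per library and population and divided by the UMI total (CPM). Log2 ratios carry exact conditional binomial intervals and shares Clopper-Pearson intervals (95%). These cover counting error only. The ratios, intervals and calls were checked on simulated counts with known changes. Those counts were drawn independently, as the intervals assume, without UMIs gathered in few barcodes. The check therefore cannot show how often such genes are wrongly called in these data. Clustering, shares and gene lists were not checked in that way. Sub-clusters came from Leiden clustering (resolution 0.5, 1500 variable genes, 20 principal components, 15 neighbours, without rule genes). For a gene with 0 UMIs in a population the ratio was set against a floor of 3 counts.

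Named genes were the rule genes, those of 35 fixed lists (23 programmes, 12 cell types), the 15 highest and 10 lowest called genes of members against other Csf1r barcodes, and the 8 highest and 8 lowest of HHcy and of WD against control. Sex-linked, immunoglobulin, T cell receptor and haemoglobin genes and genes under 10% of the level of the other barcodes were left out. Genes in other sentences were chosen after their values were seen. Members and lists were chosen with earlier results of these data known. Alternatives changed scaling, filters, depth, the rule and the denominator. Software was Python 3.11.15, numpy 2.4.6, pandas 2.3.3, scipy 1.17.1, scikit-learn 1.9.0, python-igraph 0.11.9, leidenalg 0.10.2 and matplotlib 3.10.9.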

Additional observations from a re-analysis of the deposited data

Results flagged for a closer look

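For 5 genes, members lay above other Csf1r barcodes in 1 library and below them in another, with counting intervals off 0 on both sides. Only genes of the fixed lists and the most extreme named genes were searched, so the count does not cover all genes compared. Some were named for their differences between libraries, which favours such a pattern. The difference between libraries was not tested. Marco had a log2 ratio of members over other Csf1r barcodes of 3.85 in the HHcy-labelled library, -2.50 in the control library and -1.36 in the WD library, with 100%, 100% and 86.8% of its member UMIs in 5 barcodes. Hal stood at 2.36, -2.57 and -2.03 in the same order, and in the HHcy-labelled library its 5 richest members held 39.4% of its UMIs. Il12b stood at 3.57 in the HHcy-labelled library and -5.14 in the control library, with 100% of its member UMIs in 5 barcodes in each. Cpa3 stood at 1.73 in the control library and -1.53 in the WD library, and Mcpt4 at 1.9999 and -1.82, with 99.7% and 99.2% of control UMIs in 5 barcodes. Except for Hal in the HHcy-labelled library and Mcpt4 in the WD library, these values rest on a handful of barcodes each.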

How the results depend on the processing

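No paired analysis was possible because each group was 1 library. Over 13 alternatives, 1498 of 1620 values of named genes kept direction and call, 112 fell under 2-fold or reached an interval over 0, and 10 turned. A gene under the UMI minimum in a setting gave no value there and was not counted. Of 146 pairs of gene and comparison, 81 had a value without barcodes with 3 genes of another lineage. After thinning to 2000 UMIs 92 had a value, and without the 5 richest barcodes of each gene 98. Without barcodes with 3 genes of another lineage, which left 90 HHcy members, Fcna (HHcy over control) was -0.16, Cd209b (WD over HHcy) 0.58, the list medians of members over other Csf1r barcodes were -0.15 (cell cycle) and 0.33 (neutrophil), and called genes numbered 166 higher (members over other), 41 higher and 184 lower (HHcy over control), 52 lower (WD over control) and 223 and 67 (WD over HHcy). Without barcodes with 3 neutrophil genes, an alternative chosen after seeing the data, Cd5l (HHcy over control) was -2.53, Spp1 -2.39, Nkg7 (WD over HHcy) 1.70 and the neutrophil median 0.090, with 66 higher and 232 lower genes (HHcy over control), 70 higher (WD over control) and 313 higher (WD over HHcy). Without the 5 richest barcodes of each gene, also chosen after seeing the data and heavier on the smaller library, Spp1 was -1.58 and Nkg7 2.19, with 66 higher (HHcy over control), 206 and 27 (WD over control) and 333 and 36 (WD over HHcy). Sub-clusters 1 and 2 alone, chosen after seeing the data, gave -1.75 (cell cycle), -1.86 (T or NK cell) and -1.53 (Nkg7) for members over other Csf1r barcodes, with 613 and 770 called, 46 higher (HHcy over control), 66 and 46 (WD over control) and 28 lower (WD over HHcy). Thinning to 2000 UMIs gave 49 and 44, 71 and 26, and 23 lower, and a minimum of 10 UMIs gave 274 and 199, 191 and 231, and 152 and 340 in the same 3 comparisons. Means of each barcode's CPM gave 340 lower genes (members over other) and Adamts1 (WD over HHcy) at 0.10. With a sum of at least 5, Spp1 (HHcy over control) was -0.036. The cause of these changes was not tested, except that thinning leaves fewer genes with 50 UMIs, and a minimum of 10 UMIs more genes compared, by construction.

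The log2 ratios of shares for HHcy over control, WD over control and WD over HHcy, in Csf1r barcodes 0.16, 0.18 and 0.014, were -0.85, 0.59 and 1.43 over kept barcodes. For the positive conditions alone the last 2 were 0.78 and 0.46. HHcy over control and WD over HHcy were 0.44 and -0.35 with members chosen after thinning, 0.48 and -0.42 without other lineages, 0.35 and -0.21 without neutrophil genes and -0.10 and 0.28 without Apoe-rich barcodes. WD over HHcy was 0.20 at 5% mitochondrial UMIs and -0.20 at a sum of at least 5. A Leiden resolution of 1.0 gave 17 sub-clusters. With 1 library per group, no setting gives an error between mice, and genes under 50 UMIs were not compared at this depth.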

Other observations

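Within the HHcy-labelled library, the members rich in Apoe could be set beside the others of the same sub-clusters, a comparison inside 1 library. Of 274 members in sub-clusters 1 and 2, 84 had 10 or more Apoe UMIs and 190 had fewer. The share was 24.8% (32 of 129) in sub-cluster 1, 35.9% (52 of 145) in sub-cluster 2 and 21.3% (26 of 122) in sub-clusters 3 to 11. Of 4520 genes, 22 were at least 2-fold higher in the Apoe-rich members and 48 lower. Hal, which starts the breakdown of histidine, was at 259 CPM in them and 9.57 CPM in the others, a log2 ratio of 4.76, and Arsb, a lysosomal sulfatase, at 146 and 49.6 CPM (1.56). Lower in the Apoe-rich members were Vcam1, at 42.3 against 184 CPM (-2.12), Ccl8, at 525 against 1432 CPM (-1.45), C6 (-1.50), Cx3cr1 (-1.07) and Mmp12, a protease that cuts elastin (-4.96). Cd209f was at 506 and 384 CPM and Cd209d at 229 and 203 CPM, closer than 2-fold. The split was made on Apoe, a measured value, so these ratios describe the 2 sets of barcodes and carry no test.

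In the same cells, leaving out the Apoe-rich members gave log2 ratios of HHcy over control of 1.51 for Ccl8, 1.36 for C6 and -1.34 for Id3, against 1.18, 1.01 and -1.16 with them. The 84 members with 10 or more Apoe UMIs thus lay nearer to the control library in Ccl8 than the other 190 did.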
